A study of Mus musculus with 14 samples.

Results

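Antigen presentation by MHC class II was followed through early B cell development and in cells without Pax5 with 8 genes: Ciita, Cd74, H2-Aa, H2-Ab1, H2-Eb1, H2-DMa, H2-Oa and H2-Ob. They are 8 of the 18193 genes that the mouse array measured by a probe set with 1 gene symbol, and 16 of 34945 such probe sets read them. A probe set belonged to a gene when its annotation gave that symbol alone, and for each gene the brightest probe set, by its mean over the 14 arrays, led. A further H2-Ob probe set that also carries the symbol Gm20506 was left out.

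The 14 arrays measured RNA of sorted mouse bone marrow cells in 6 groups, all from mice of 8 to 12 weeks whose strain is given as C57Bl6 (B57Bl6 in the titles of the groups without a transplant). Pax5KO engrafted cells (3 arrays) and WT engrafted cells (3 arrays) came from fetal liver of day 15 embryos that carried a λ5 reporter, without Pax5 or wild type. The donor liver was given to irradiated mice, and 4 weeks later marrow cells carrying both B220 and the reporter were sorted. Mice without a transplant gave the other 4 groups, with 2 arrays each: Ly6D- CLP and Ly6D+ CLP, which are common lymphoid progenitors, then ProB and then PreB cells. It is not stated in the labels what portion of Pax5 was deleted, whether animals were pooled, or how the untransplanted cells were gated beyond their names. They call the arrays of a group biological replicates, and nothing else in them says that each array is a separate animal. An irradiated host keeps some cells of its own, and the reporter marks the donor cells. The PreB arrays are numbered 2 and 3 after their titles.

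MHC class II molecules carry peptides made in endosomes to the cell surface, where CD4 T cells read them, and B cells use them to obtain T cell help. Their genes are switched on together by the coactivator Ciita, which binds no DNA itself and is recruited by RFX, CREB and NF-Y proteins to the X and Y boxes just upstream of each gene. The invariant chain Cd74 guides the new alpha and beta chains to the endosome, H2-DM then exchanges its remnant for peptide, and H2-O holds H2-DM back. In mouse marrow class II is low on B cell precursors and becomes abundant as B cells mature. C57BL/6 mice make no I-E at the surface because their I-E alpha gene is defective, so H2-Eb1 is read here as a transcript.

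Of the 8 genes, 5 had a promoter window in the RefSeq table of assembly GRCm38.p6, and H2-DMa had 2 of the 6 windows. Each window runs from 250 bases before to 50 after the start. Of these 5 genes, 4 held GCAAC followed on the gene strand, after 10 to 50 bases, by TGATTGG; these are letters of the X box and Y box of class II genes, chosen after the windows had been read. The pair was in 69 of 32851 windows of the table (0.21%). The bases before the start are shown for those 4 genes because they share this arrangement although H2-Aa, H2-Eb1 and H2-Ob fell without Pax5 and H2-Oa did not pass the test. Capitals mark GCAAC and the Y box core ATTGG, and each sequence ends at the base before the start.
H2-Aa, chr17:34287824-34287953, minus strand: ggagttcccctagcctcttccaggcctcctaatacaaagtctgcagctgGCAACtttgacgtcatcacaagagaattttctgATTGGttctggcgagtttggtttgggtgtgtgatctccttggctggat
H2-Eb1, chr17:34305737-34305866, plus strand: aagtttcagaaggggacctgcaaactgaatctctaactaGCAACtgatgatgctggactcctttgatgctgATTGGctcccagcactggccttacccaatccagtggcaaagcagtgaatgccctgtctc
H2-Oa, chr17:34092249-34092378, plus strand: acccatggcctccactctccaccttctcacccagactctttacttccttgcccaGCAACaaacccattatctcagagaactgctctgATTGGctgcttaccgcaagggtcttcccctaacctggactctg
H2-Ob, chr17:34238775-34238904, plus strand: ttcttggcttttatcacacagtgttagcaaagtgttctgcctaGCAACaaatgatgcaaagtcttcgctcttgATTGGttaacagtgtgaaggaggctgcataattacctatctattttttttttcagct

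In the 4 sequences, 23 to 26 bases lie between GCAAC and TGATTGG, and ATTGG starts 43 to 59 bases before the start of the gene. Neither H2-DMa window held the pair. ATTGG alone, on either strand, was in 37.4% of all windows and in 5 of the 6 windows of these genes. AGNNACAG, searched on both strands as a core of the X box, was in 25.9% of all windows and, of these genes, in those of H2-Eb1 and H2-Oa, where no match lay at the capitalised GCAAC. A match describes letters in a window and is no evidence of binding.

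The deposited values are log2 signals of probe sets, and they bottom out at 2.32, which serves here as the floor. A group is said to be at the floor if no array of it exceeds that value by more than 0.5. A difference from such a group is a lower bound on the change. Some probe sets repeated a higher value on several arrays, such as Clec16a at 3.71 on every Pax5KO, ProB and PreB array. A level above the floor thus does not by itself show that a transcript was detected. Array medians lay between 2.41 and 2.52. In bulk samples, fewer cells of a type and less RNA per cell cannot be told apart. Of 7 early B cell markers, all 7 were above the floor in every group except Ly6D- CLP, where Cd79a was at it. Their summed level (log2 of the added signals) was 14.80 to 14.91 on the Pax5KO engrafted and 14.89 to 15.03 on the WT engrafted arrays. Among them Cd79a (8.56-fold, limma adjusted p = 0.00233) and Cd79b (2.40-fold, limma adjusted p = 0.0483), which carry the signal of the B cell receptor, were lower in Pax5KO than in WT engrafted cells, and the other 5 were not called. Pax5 itself read 7.57 to 7.95 in Pax5KO and 6.18 to 6.76 in WT engrafted cells; since the deleted portion is not stated, this does not check the genotype. Levels of different probe sets are not compared with each other, because each has its own sensitivity.

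Cells without Pax5 carried less of most class II transcripts than their wild type counterparts. Of the 8 genes, 6 were lower in Pax5KO than in WT engrafted cells and none was higher (limma, Benjamini-Hochberg adjusted p under 0.05 over all genes), while 2.29% of all genes were lower, 3.64% higher and 5.94% changed in either direction. The genes that fell were Ciita, the invariant chain Cd74, the 3 chain genes H2-Aa, H2-Ab1 and H2-Eb1, and H2-Ob. H2-Oa and H2-DMa did not pass. The median difference over the 8 genes was -3.65 on the log2 scale, against 0 over all genes, and 7 of the 8 had no overlap between the groups with Pax5KO lower, as did 7.65% of all genes.

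Ciita, the coactivator, read 2.32, 2.33 and 2.33 on the Pax5KO arrays, against 4.01, 3.59 and 4.81 on the WT engrafted arrays. It was at the floor without Pax5 and above it on every WT array, so the groups did not overlap. The difference was -1.81 (SE 0.25, limma adjusted p = 0.0032), which puts Ciita at least 3.52-fold lower in Pax5KO cells. A weaker probe set of Ciita stood at 2.32 on each Pax5KO array, against 2.67 to 2.84 in WT engrafted cells, and was also called lower; another stayed at the floor in both groups.

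Cd74, which chaperones class II chains, read 3.78, 4.27 and 6.51 in Pax5KO cells, against 10.76, 10.95 and 9.94 in WT engrafted cells. Every Pax5KO array lay below every WT array, and Pax5KO array 3 was the highest of its group. Cd74 was 52.0-fold lower without Pax5, a log2 difference of -5.70 (SE 0.66, limma adjusted p = 0.00129).

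H2-Aa, the alpha chain of I-A, read 4.03, 5.65 and 9.29 in Pax5KO cells, against 12.01, 11.63 and 11.68 in WT engrafted cells. The groups did not overlap, but the Pax5KO arrays spanned a range much wider than the WT arrays. The difference was -5.45 (SE 1.10, limma adjusted p = 0.0218). It lost its call without Pax5KO array 2 (adjusted p = 0.0862) and without WT array 1 (0.0810), array 2 (0.0650) or array 3 (0.0571), at differences of -5.11 to -5.52 by limma.

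H2-Ab1, the beta chain of I-A, read 5.63, 5.02 and 7.38 in Pax5KO cells, against 10.77, 10.03 and 10.49 in WT engrafted cells. Again no array of either group reached the other group, and array 3 was the highest of the Pax5KO arrays. H2-Ab1 was 21.4-fold lower without Pax5 (log2 difference -4.42, SE 0.53, limma adjusted p = 0.00165).

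H2-Eb1, the beta chain of I-E, read 2.32, 2.38 and 5.51 in Pax5KO cells, against 8.71, 8.58 and 7.92 in WT engrafted cells. It was at the floor on Pax5KO arrays 1 and 2 and well above it on array 3, so its difference of -5.00 (SE 0.76, limma adjusted p = 0.00569) is a lower bound in size.

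**Figure D1:**
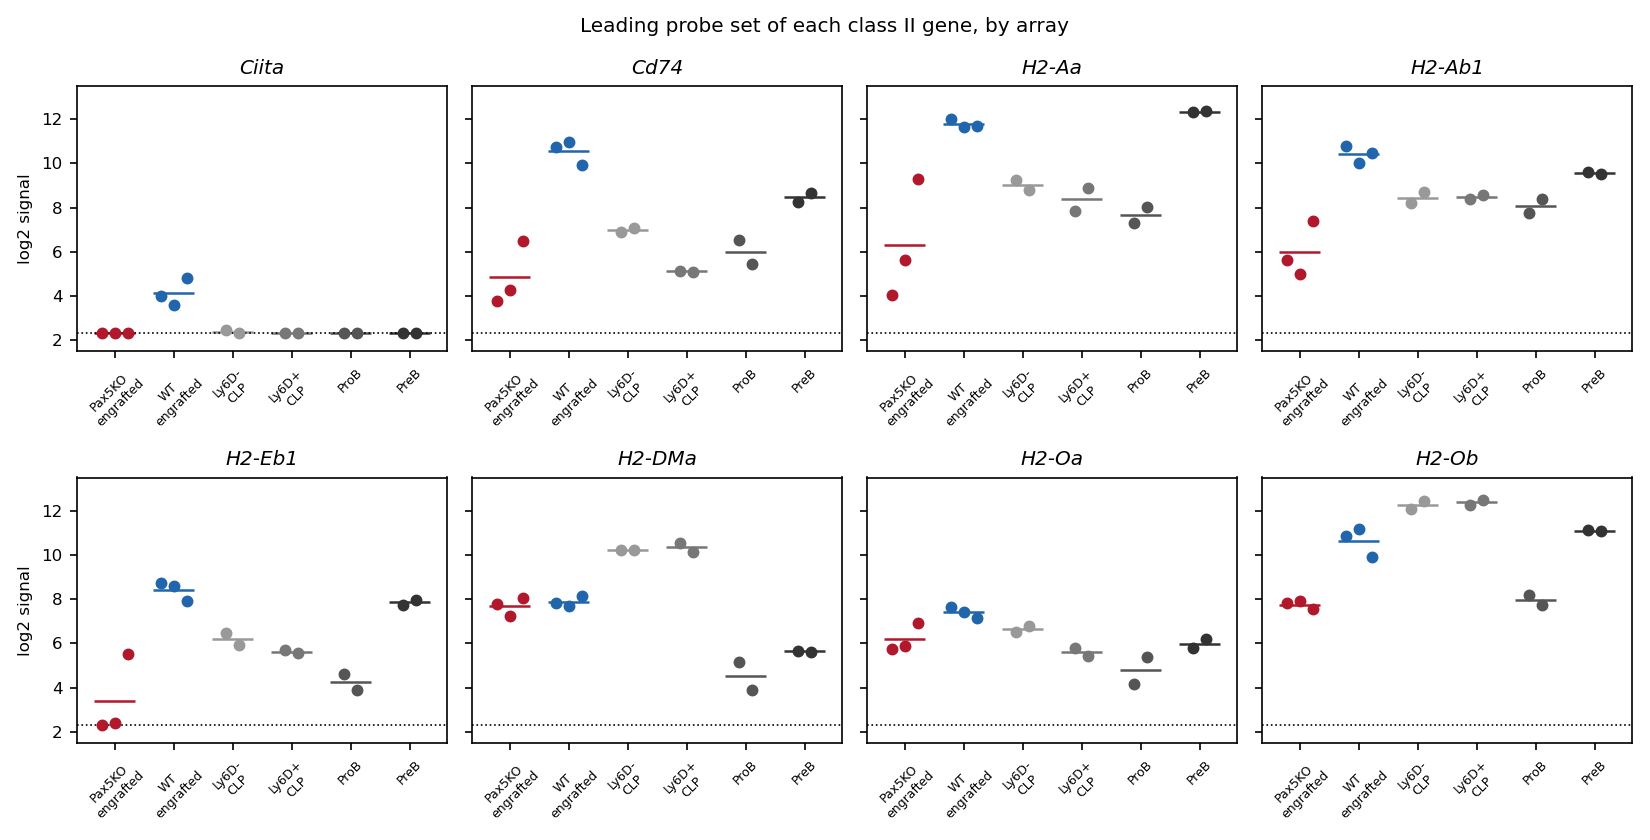
The log2 signal of the leading probe set of each of the 8 genes is plotted by array (points) with group means (bars); the dotted line is the floor at 2.32, and levels are comparable within a panel only. Ciita leaves the floor in WT engrafted cells, Cd74 and the chain genes have their lowest group mean in Pax5KO engrafted cells, where array 3 is the highest of the group, and H2-DMa is highest in both CLP groups.

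The genes for peptide loading split. H2-DMa, a chain of the H2-DM exchange factor, read 7.78, 7.26 and 8.05 in Pax5KO cells, against 7.83, 7.69 and 8.13 in WT engrafted cells. The groups overlapped and the difference was -0.19 (SE 0.32, limma adjusted p = 1.0). H2-Oa, the alpha chain of the inhibitor H2-O, read 5.76, 5.86 and 6.92 in Pax5KO cells, against 7.63, 7.44 and 7.15 in WT engrafted cells. These did not overlap, but the difference of -1.23 (SE 0.38, limma adjusted p = 0.127) did not pass.

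H2-Ob, the beta chain of H2-O, read 7.81, 7.90 and 7.55 in Pax5KO cells, against 10.86, 11.18 and 9.89 in WT engrafted cells. Unlike Cd74 and the chain genes, it was as low on Pax5KO array 3 as on arrays 1 and 2. It was 7.41-fold lower without Pax5 (log2 difference -2.89, SE 0.30, limma adjusted p = 0.000724).

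All 16 probe sets of the 8 genes had a lower mean in Pax5KO than in WT engrafted cells, and 12 were called lower when each probe set was tested singly, as were 1.69% of all 34945 probe sets. The 4 that were not called were both H2-DMa sets, the H2-Oa set and the Ciita set at the floor. The 12 include the weaker Ciita set that lay close to the floor. For H2-Aa the 4 probe sets differed by -3.34 to -5.45, and for H2-Ab1 the 3 sets by -3.24 to -4.61, on the log2 scale. Several of these are sets that can bind related transcripts, so the sizes for single I-A genes are less certain than the direction.

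The replicate numbers were taken to pair the engrafted arrays, since same-numbered arrays deviated together in all 3 pairs. With the number as a block in a fit of those 6 arrays, 0 of the 8 genes were called at adjusted p (limma adjusted p = 0.117 for H2-Ob to 0.308 for H2-Aa among the 6 genes above), with 5 at an unadjusted p under 0.05 and 92 genes called in all. With the same block and all 14 arrays in the fit, an alternative added after the data were seen, 6 of the 8 were called lower and 1108 genes in all.

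**Figure D2:**
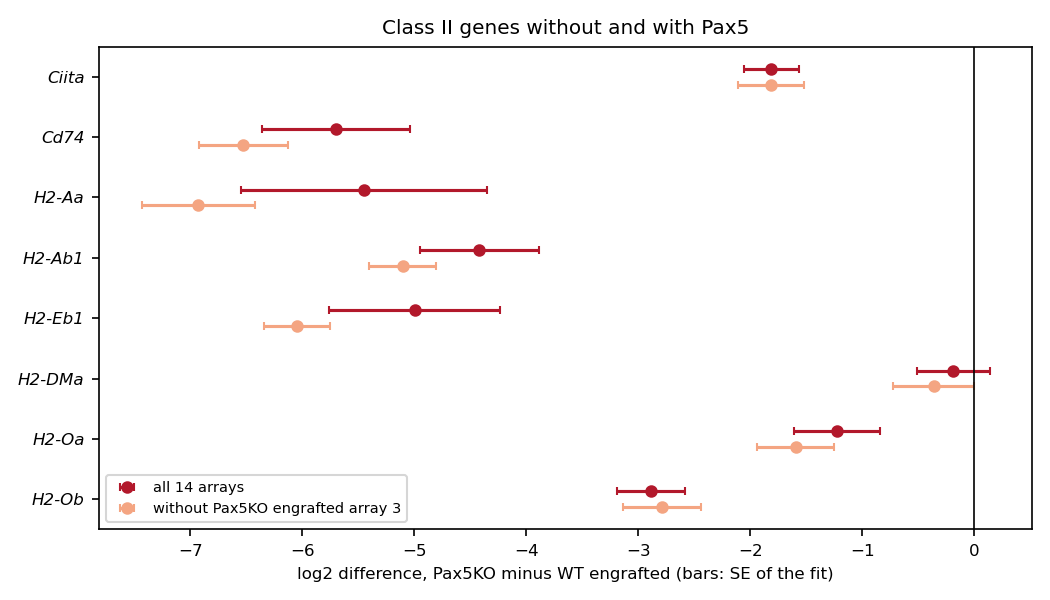
The log2 difference of Pax5KO minus WT engrafted cells is plotted for each gene with the standard error of the limma fit, over all 14 arrays and without Pax5KO engrafted array 3. Leaving out that array moves H2-Aa to -6.93 and H2-Eb1 to -6.05, and H2-DMa stays nearest to 0.

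One Pax5KO array stood apart in the genes of the class II molecule itself. On Pax5KO array 3, H2-Aa was 4.45 above the mean of arrays 1 and 2 on the log2 scale, a rise that 0.0201% of 9948 genes above the floor equalled or passed. H2-Eb1 was 3.16 above that mean, Cd74 2.48, H2-Ab1 2.05 and H2-Oa 1.11, while the median gene differed by -0.15. H2-DMa was 0.53 above it, H2-Ob was lower by 0.31 (difference -0.31), and Ciita stayed at the floor. WT array 3 showed no such rise for these chains: H2-Aa differed by -0.14 and Cd74 by -0.92 from the mean of WT arrays 1 and 2.

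Other readings of Pax5KO array 3 moved with it. The 3′ minus 5′ difference of the actin control probes was 4.57 on array 3, against 3.16 and 3.14 on arrays 1 and 2, and that of the Gapdh probes was 5.79, against 3.90 and 3.17. WT array 3 was also the highest of its group, at 3.47 for actin, against 2.51 and 2.56, and at 5.44 for Gapdh, against 2.60 and 3.02, without a rise of the class II chains. Kit, a receptor of progenitors, read 4.61 on Pax5KO array 3, against 7.0 and 7.13 on arrays 1 and 2, and the recombinase gene Rag1 read 10.38, against 12.50 and 12.35. The other early B cell markers did not all follow Rag1 on Pax5KO array 3. Ptprc was lower (10.68, against 11.96 and 12.10), Cd79a was slightly lower, and Ebf1 lay between arrays 1 and 2. Cd79b (12.27, against 11.76 and 11.80), Igll1 (13.12, against 12.92 and 12.59) and Vpreb1 were higher. On WT array 3 Rag1 read 10.16, against 12.04 and 12.03 on WT arrays 1 and 2. Kit read 2.52 on WT array 3, against 3.11 and 3.97. The summed level of 6 mature B cell markers was 8.05 on Pax5KO array 3, against 7.36 and 6.38 on the other arrays of its group. Csf1r, a macrophage growth factor receptor, read 3.10, 4.38 and 5.72 on Pax5KO arrays 1, 2 and 3, and 3.51, 4.50 and 5.57 on WT arrays 1, 2 and 3. The summed level of the 9 macrophage and monocyte markers was 9.93, 10.62 and 10.03 on the Pax5KO arrays, with C1qa, C1qc, Fcgr1 and Mertk at the floor, and most of it came from Ly86 (9.85, 10.56 and 9.87). The other 8 summed to 5.66, 5.96 and 6.77 on Pax5KO arrays 1, 2 and 3, and to 6.22, 6.14 and 6.77 on WT arrays 1, 2 and 3, so array 3 was the highest of both groups in this sum. Of 8 dendritic markers, 6 were at the floor in both engrafted groups (Itgax, Zbtb46, Xcr1, Batf3, Cd209a and Siglech). Flt3, which is also a progenitor marker, and Ccr7 were above it in both. The list summed to 9.81, 10.12 and 9.03 on Pax5KO arrays 1, 2 and 3, and to 7.23 to 8.13 on the WT arrays. The part of RNA quality, of the stage of the cells and of other cells in the readings of array 3 was not tested.

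Without Pax5KO array 3 the differences widened to -6.93 for H2-Aa, -6.53 for Cd74, -6.05 for H2-Eb1 and -5.10 for H2-Ab1. H2-Oa then passed as well (-1.60, limma adjusted p = 0.0403), which made 7 of 8 genes lower, against 1.9% of all genes without that array. H2-Ob was at -2.79. Each of the 6 genes called over all arrays was thus lower on all 3 Pax5KO arrays than on any WT array, and Cd74 and the chain genes were lowest on arrays 1 and 2.

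**Figure D3:**
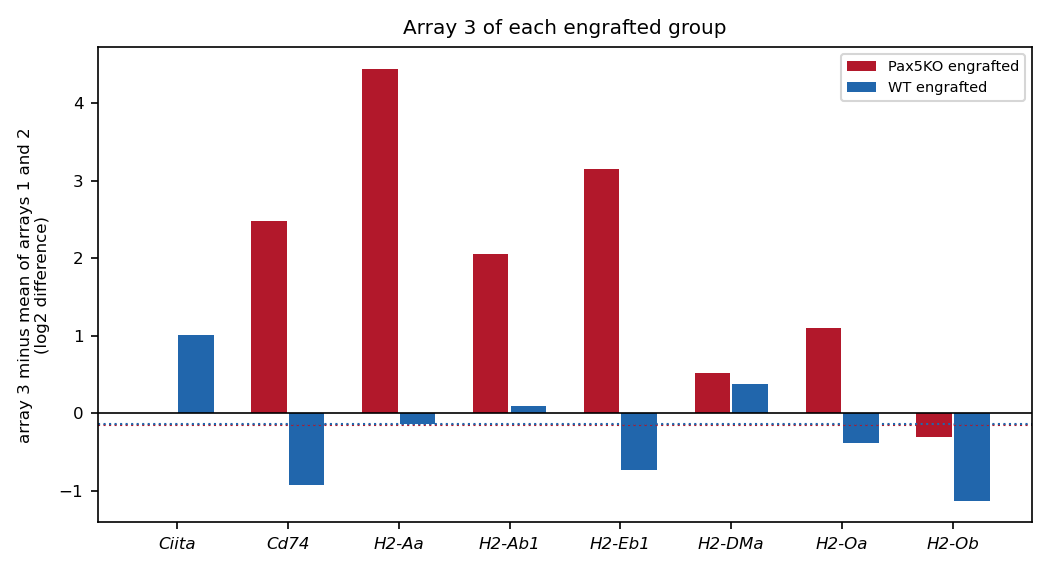
Bars give array 3 minus the mean of arrays 1 and 2 of the same group, in log2 units, for Pax5KO engrafted and WT engrafted cells, with dotted lines at the median of all genes above the floor (-0.15 and -0.13). H2-Aa, H2-Eb1, Cd74 and H2-Ab1 are 2.05 to 4.45 higher on Pax5KO array 3, and Cd74, H2-Eb1 and H2-Ob are lower on WT array 3.

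Markers of cell stage and type moved with genotype beside the class II genes. The summed level of 6 mature B cell markers was 6.38 to 8.05 on the Pax5KO and 12.26 to 13.21 on the WT engrafted arrays. Ms4a1, which encodes CD20, read 2.42, 2.36 and 3.12 in Pax5KO cells, against 12.41, 12.23 and 10.90 in WT engrafted cells. Fcer2a, Cr2 and Fcmr were at the floor in Pax5KO cells, and all 6 markers were above it in WT engrafted cells. Of those 6, Ms4a1, Fcmr and Cd22 were called lower in Pax5KO cells. Of 4 progenitor markers, the receptors Flt3 (59.9-fold, limma adjusted p = 2.23e-05) and Kit (8.25-fold, limma adjusted p = 0.0279) were higher in Pax5KO cells, and Il7r and Ly6d were not called. Of 5 plasma cell markers, Jchain was higher in Pax5KO cells (119-fold, limma adjusted p = 0.0253) and Sdc1 lower (8.71-fold, limma adjusted p = 0.0107), with Prdm1 and Tnfrsf17 at the floor in both groups. None of 6 granulocyte markers was called; S100a8 (difference -2.31), S100a9 (-2.13), Ngp (-2.25) and Camp (-0.81) had WT above Pax5KO without overlap, and their list summed to 7.84 to 8.48 on the Pax5KO and 7.84 to 10.11 on the WT engrafted arrays. The part of these differences in the class II difference was not tested.

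Xist was above 10 on all Pax5KO arrays, both ProB arrays and WT array 3, and at most 2.73 on the other 8 arrays, so the sex of the cells differed between and within groups. H2-Ob split the same way: it read 7.55 to 9.89 on the 6 arrays with high Xist and 10.86 to 12.50 on the 8 with low Xist. No other of the 8 genes separated these arrays. With a term for high Xist, which sets the Pax5KO mean against WT array 3 alone, H2-Ob differed by -2.14 (limma adjusted p = 0.00174), H2-Eb1 by -4.51 (0.0751) and H2-Aa by -5.35 (0.163).

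The untransplanted cells show how the class II genes stand along normal development. From Ly6D- CLP to Ly6D+ CLP no member was called by limma, as against 1.45% of all genes in either direction; Cd74 alone had an unadjusted p under 0.05, and 1809 of all genes had one. From Ly6D+ CLP to ProB, H2-DMa and H2-Ob fell and none rose (2 of 8), against 5.36% of all genes lower and 1.93% higher. From ProB to PreB, by leading probe set, H2-Eb1 and H2-Ob rose and none fell (2 of 8), against 6.35% of all genes higher and 5.19% lower, and 7 of the 8 had PreB above ProB with no overlap, as did 22.4% of all genes.

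H2-DMa, of the peptide exchange factor, had signals of 10.21 and 10.24 on the Ly6D- CLP arrays, 10.55 and 10.12 on the Ly6D+ CLP arrays, 5.17 and 3.88 on the ProB arrays, and 5.67 and 5.62 on the PreB arrays. It was high in both progenitor groups and low in both B lineage groups. It was 56.1-fold lower in ProB than in Ly6D+ CLP (log2 difference -5.81, SE 0.40, limma adjusted p = 0.000137). Its second probe set read 3.53 and 3.04 in ProB, against 7.30 and 6.23 in Ly6D+ CLP. The step from ProB to PreB was 1.12 (SE 0.40, limma adjusted p = 0.124).

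H2-Ob, of the inhibitor H2-O, had signals of 12.06 and 12.43 on the Ly6D- CLP arrays, 12.25 and 12.50 on the Ly6D+ CLP arrays, 8.17 and 7.72 on the ProB arrays, and 11.11 and 11.06 on the PreB arrays. It was lowest in ProB, and neither ProB array came near another stage. ProB differed from Ly6D+ CLP by -4.43 (SE 0.37, limma adjusted p = 0.000372) and PreB from ProB by 3.14 (SE 0.37, limma adjusted p = 0.00115). The ProB arrays have high Xist and the other stages do not, so the stage and the sex of the cells cannot be told apart here.

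H2-Eb1 had signals of 6.46 and 5.91 on the Ly6D- CLP arrays, 5.68 and 5.58 on the Ly6D+ CLP arrays, 4.61 and 3.90 on the ProB arrays, and 7.76 and 7.95 on the PreB arrays. Each stage was clear of the one before, with the lowest level in ProB and the highest in PreB. It rose by 3.60 from ProB to PreB (SE 0.93, limma adjusted p = 0.0409), and that call was lost without any 1 of the 4 arrays (adjusted p = 0.0710 to 0.185).

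H2-Aa had signals of 9.25 and 8.79 on the Ly6D- CLP arrays, 7.83 and 8.91 on the Ly6D+ CLP arrays, 7.33 and 8.02 on the ProB arrays, and 12.31 and 12.37 on the PreB arrays. Of the first 3 stages each overlapped the next, and PreB was above all of them. For the leading probe set, the difference of 4.67 between PreB and ProB (SE 1.35, limma adjusted p = 0.0611) did not pass. It passed when dim genes were left out of the fit (limma adjusted p = 0.00950). Tested singly, weaker H2-Aa sets were called higher in PreB, at 5.80 with ProB at the floor (limma adjusted p = 0.000739) and at 1.94 (limma adjusted p = 0.00924). The remaining set, at 4.53, was not called (limma adjusted p = 0.0662).

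Cd74 had signals of 6.91 and 7.10 on the Ly6D- CLP arrays, 5.14 and 5.10 on the Ly6D+ CLP arrays, 6.55 and 5.44 on the ProB arrays, and 8.27 and 8.66 on the PreB arrays. PreB again stood above the other stages. PreB exceeded ProB by 2.47 (SE 0.81, limma adjusted p = 0.0946), and by an adjusted p of 0.0231 without dim genes.

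H2-Ab1 moved little, at 8.21 and 8.70 on the Ly6D- CLP arrays, 8.39 and 8.55 on the Ly6D+ CLP arrays, 7.78 and 8.40 on the ProB arrays, and 9.63 and 9.52 on the PreB arrays, with PreB minus ProB at 1.48 (SE 0.65, limma adjusted p = 0.231). Its weaker sets differed by only 0.14 and 0.23 between PreB and ProB, with overlap, and were not called when tested singly. H2-Oa had signals of 6.53 and 6.80 on the Ly6D- CLP arrays, 5.79 and 5.44 on the Ly6D+ CLP arrays, 4.17 and 5.40 on the ProB arrays, and 5.78 and 6.20 on the PreB arrays. Neither gene passed the test at any of these steps. Ciita was at the floor in all 4 groups, with 2.45 on Ly6D- CLP array 1 as its highest reading, while class II chain transcripts were read there. Its leading set read only 3.59 to 4.81 even in WT engrafted cells. A floor reading therefore does not show that Ciita was absent from these stages.

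The PreB arrays also carried transcripts of other blood cells. S100a8, a granulocyte transcript, read 12.02 and 12.85 in PreB and 3.18 and 3.29 in ProB, and the summed level of 6 granulocyte markers was 13.15 to 13.92 in PreB and 5.41 to 5.51 in ProB, with Elane at the floor in PreB. Csf1r read 7.71 and 8.24 in PreB and 3.20 and 2.94 in ProB. Of 8 dendritic markers, 5 were above the floor in PreB and 2 in ProB, and their summed level was 8.24 to 8.50 in PreB and 6.61 to 6.96 in ProB. Most of the PreB sum came from Ccr7 (8.02 and 7.49), which read 7.76, 6.76 and 7.90 in WT engrafted cells. Of the 8 markers, Siglech (difference 2.03, limma adjusted p = 0.00891, with ProB at the floor) and Ccr7 (2.80, limma adjusted p = 0.0104) were higher in PreB. Itgax read 3.84 and 2.77 in PreB, against 2.32 and 2.33 in ProB, and Zbtb46 read 3.74 and 2.33, against 2.47 and 2.32. Xcr1, Batf3 and Cd209a were at the floor in all 6 groups. Ly6D- CLP array 2 carried granulocyte transcripts too. S100a8, S100a9, Ngp and Camp read 10.59, 8.95, 8.58 and 9.28 on it, against 2.39, 2.32, 2.45 and 2.36 on array 1. Elane was at the floor on both of these arrays, and Mpo read 12.38 on array 1 and 12.12 on array 2. Csf1r read 6.25 and 7.78 in Ly6D- CLP and 5.07 and 7.31 in Ly6D+ CLP. The part of other cells in the PreB and CLP readings was not tested. The actin 3′ minus 5′ difference was 7.27 and 6.71 in PreB, against 2.73 and 3.67 in ProB.

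Set against ProB cells, Pax5KO engrafted cells were higher in 1 member and lower in none, while 4.22% of all genes were higher and 1.02% lower. The member was H2-DMa, which averaged 7.70 ± 0.40 (SD, n = 3) in Pax5KO cells and 4.53 ± 0.91 (SD, n = 2) in ProB cells (difference 3.17, SE 0.36, limma adjusted p = 0.00195). Its second probe set differed by 0.78 and was not called when tested singly (limma adjusted p = 0.378). H2-Ob was at 7.75 ± 0.18 (SD, n = 3) in cells without Pax5, against 7.94 ± 0.32 (SD, n = 2) in ProB cells (difference -0.19, SE 0.34, limma adjusted p = 1.0). Without Pax5KO array 3, H2-Ab1 (-2.76), H2-Aa (-2.83), Cd74 (-1.97) and H2-Eb1 (-1.90) were called lower in Pax5KO cells (limma adjusted p = 0.00456, 0.0324, 0.0499 and 0.0196 in that order), against 0.797% of all genes. These 4 calls of leading probe sets thus depend on whether that array is counted. With all arrays, a weaker H2-Ab1 set tested singly was already called lower (-2.10, limma adjusted p = 0.0354). The weakest H2-Ab1 set was not (-1.01, limma adjusted p = 0.221). The comparisons with ProB and with WT engrafted cells share the Pax5KO arrays. Transplantation, the fetal liver source and the sort gate differ between Pax5KO engrafted and ProB cells and cannot be told apart from genotype in this comparison.

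Set against PreB cells, WT engrafted cells were by leading probe set higher in 2 members and lower in none, while 4.52% of all genes were higher and 2.86% lower. Transplantation, the fetal liver source and the sort gate differ between these groups and cannot be told apart from stage in this comparison. The actin and granulocyte readings of the PreB arrays given above stand beside these values. Ciita averaged 4.14 ± 0.62 (SD, n = 3) in WT engrafted cells and was at the floor in PreB (difference 1.81, SE 0.28, limma adjusted p = 0.00576), at least 3.52-fold higher. H2-DMa averaged 7.88 ± 0.23 (SD, n = 3) in WT engrafted cells and 5.65 ± 0.03 (SD, n = 2) in PreB (difference 2.23, SE 0.36, limma adjusted p = 0.00775). Its second probe set differed by 0.46 and was not called when tested singly (limma adjusted p = 0.713). Cd74 differed by 2.09 (SE 0.74, limma adjusted p = 0.157), H2-Aa by -0.57 (SE 1.23, limma adjusted p = 1.0) and H2-Eb1 by 0.55 (SE 0.85, limma adjusted p = 1.0).

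Ordered by the group mean of the leading probe set, 3 patterns appear among the 8 genes. Cd74, H2-Aa, H2-Ab1 and H2-Eb1 have WT engrafted and PreB cells on top and Pax5KO engrafted cells at the bottom. For Cd74 and H2-Ab1, WT engrafted and PreB cells did not overlap, with WT higher; for H2-Eb1 they overlapped, and for H2-Aa PreB was higher without overlap. At the bottom, Pax5KO arrays overlapped the next group (Ly6D+ CLP for Cd74, ProB for H2-Aa and H2-Eb1) for all but H2-Ab1, whose 3 Pax5KO arrays lay below every ProB array. Weaker probe sets did not all keep this order. Both weaker H2-Ab1 sets had Ly6D- CLP rather than PreB below WT engrafted cells (means 6.89 against 5.94, and 3.92 against 3.59). The brightest weaker H2-Aa set kept the order of the leading set. The others had ProB at the bottom (2.41 against 2.97 in Pax5KO cells, and 3.14 against 3.16). In the latter, WT engrafted cells stood above PreB (6.50 against 5.09).

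H2-DMa and H2-Ob have both CLP groups on top, and those overlapped each other. Below them H2-DMa falls to WT and Pax5KO engrafted cells, which overlapped, then PreB, then ProB. H2-Ob falls to PreB and WT engrafted cells, which overlapped, then ProB and Pax5KO engrafted cells, which also overlapped. H2-Oa has WT engrafted cells on top and ProB last, with Ly6D- CLP, Pax5KO engrafted, PreB and Ly6D+ CLP between them, each overlapping the next. Ciita was above the floor in WT engrafted cells alone.

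Across the 14 arrays, H2-Aa and H2-Eb1 had a Pearson correlation of 0.96, H2-Ab1 and H2-Eb1 0.93, and Cd74 and H2-Eb1 0.92. H2-DMa correlated at -0.10 with Cd74 and -0.09 with H2-Aa, and at 0.62 with H2-Ob. These describe 14 arrays in 6 groups, which share group differences, and are not independent points. By correlation with the mean of the members, among 3949 genes that ranged over at least 3 log2 units, the 10 most alike were Bcl3 (0.89), Klf2 (0.88), Pim2 (0.87), H2-DMb2, Nfkbid, Dusp10, Btla, Rnase6, Sp100 and Samhd1 (0.84). For H2-Ob alone the closest were Ncf1, Eif2s3y and Mdfic, of which Eif2s3y is a Y-linked gene that read 2.32 to 2.66 on the arrays with high Xist and 9.08 to 11.04 on the others. Ppcdc (0.97) was closest to H2-DMa, Grn (0.94) to H2-Aa, Cd72 (0.93) to H2-Ab1 and Fcmr (0.92) to Cd74.

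Genes that work with class II were partly lower without Pax5. The counts of these lists stand beside 2.29% of all genes lower and 3.64% higher. Of 3 measured partner genes, H2-DMb2, a beta chain of H2-DM, fell in Pax5KO cells, and H2-Ea and H2-Eb2 did not pass. H2-DMb2 read 4.79, 4.23 and 6.21 in Pax5KO cells, against 7.54, 7.11 and 7.58 in WT engrafted cells (difference -2.33, SE 0.43, limma adjusted p = 0.0143). The groups did not overlap, and array 3 was again the highest of the Pax5KO arrays. The alpha chain H2-DMa thus showed no called difference where its beta chain H2-DMb2 did; the difference between these differences was not tested.

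Of 8 endosomal processing genes, 1 fell, 2 rose and 5 did not pass. Ifi30, a thiol reductase that opens disulphide bonds of antigens in endosomes, read 6.50, 6.64 and 7.44 in Pax5KO cells, against 11.97, 11.91 and 10.93 in WT engrafted cells (difference -4.74, SE 0.40, limma adjusted p = 0.000214). The groups lay far apart, as for Cd74. The proteases cathepsin L (Ctsl, difference 1.95, SE 0.44, limma adjusted p = 0.0365) and cathepsin D (Ctsd, difference 1.21, SE 0.24, limma adjusted p = 0.0212) were higher without Pax5, while Ctss, the protease that degrades the invariant chain in B cells, was not called.

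Of 3 genes of class II turnover, Cd83 fell and the ubiquitin ligases Marchf1 and Marchf8 did not pass. Cd83, which protects class II from Marchf1, read 2.32, 2.53 and 2.53 in Pax5KO cells, against 7.45, 7.85 and 5.76 in WT engrafted cells. It was at the floor on every Pax5KO array, so its difference of -4.56 (SE 0.45, limma adjusted p = 0.000486) is a lower bound in size.

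None of the 7 DNA-binding partners of Ciita (Rfx5, Rfxank, Rfxap, Nfya, Nfyb, Nfyc and Creb1) was called in Pax5KO against WT engrafted cells by limma, 0 had an unadjusted p under 0.05, and their median difference was -0.44. Of 12 genes that regulate Ciita transcription, 3 fell and none rose. Spib, an Ets factor of B cells, read 7.71, 7.58 and 8.37 in Pax5KO cells, against 12.79, 13.10 and 12.59 in WT engrafted cells (difference -4.94, SE 0.35, limma adjusted p = 7.7e-05). Irf4 read 7.15, 7.56 and 6.80 in Pax5KO cells, against 11.38, 11.68 and 10.86 in WT engrafted cells (difference -4.14, SE 0.66, limma adjusted p = 0.00713). Irf8 was at -1.67 (SE 0.18, limma adjusted p = 0.000818), and no array of these 3 factors crossed into the other group. Spi1, which encodes PU.1, read 7.14, 6.81 and 6.73 in Pax5KO cells, against 6.90, 7.04 and 7.31 in WT engrafted cells, and was not called.

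Genes of class I presentation, which shows peptides of the cytosol to CD8 T cells, did not pass the test between the engrafted groups. Of 13 such genes none was called by limma, and their median difference was 0.69, against -3.65 for the 8 class II genes. An unadjusted p under 0.05 was reached by 6 of the 13, all with a higher mean in Pax5KO cells. Among these were the peptide transporter gene Tap2 (difference 1.51, SE 0.37, limma adjusted p = 0.0508) and Nlrc5, the class I counterpart of Ciita (difference 1.39, SE 0.36, limma adjusted p = 0.0657). Of the 17 genes that neighbour the members on chromosomes 16, 17 and 18, only H2-DMb2 was called lower, and their median was 0.08. Of the 17, 5 were at the floor in both groups (Arsi, Btnl2, Col11a2, Synpo and Tvp23a) and could not be called lower. Tap2, Psmb8, Psmb9 and Brd2, which lie beside class II genes on chromosome 17, were among the 16 not called.

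**Figure D4:**
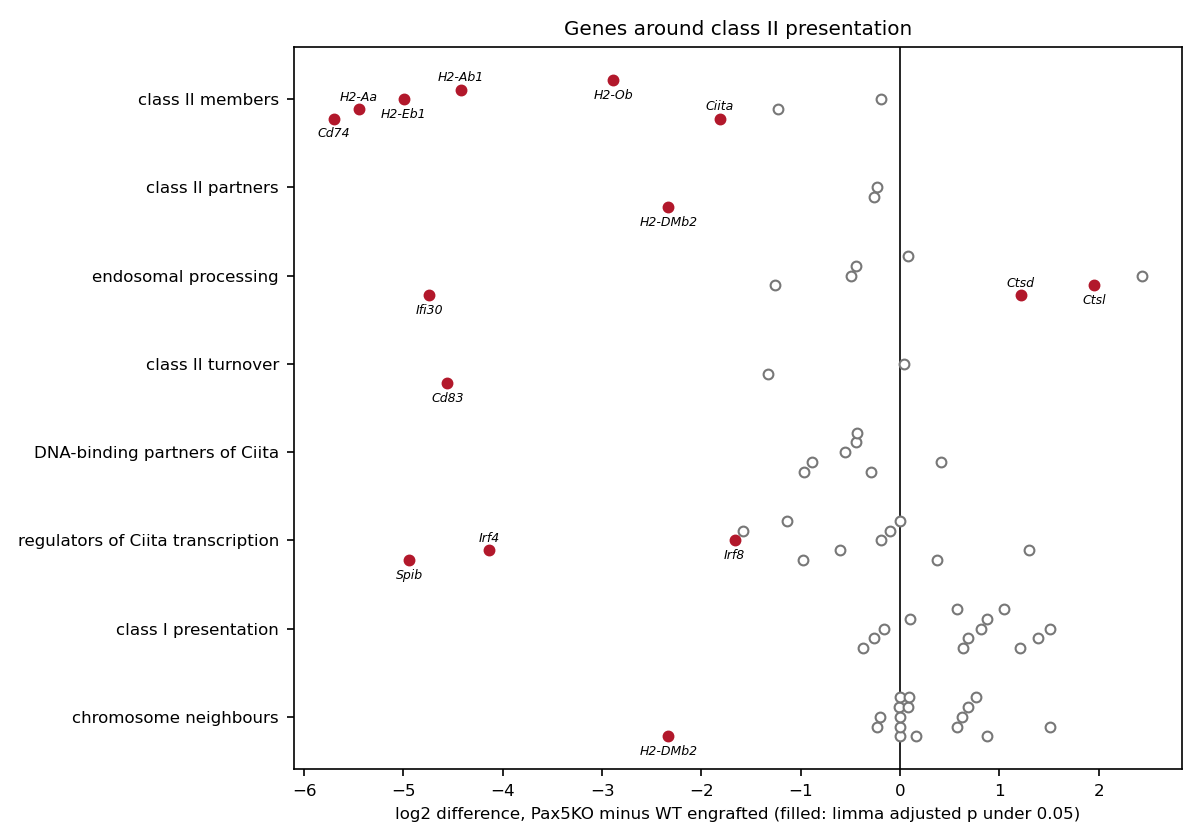
Each point is a gene, placed by its log2 difference of Pax5KO minus WT engrafted cells, in rows by gene list; filled points have a limma adjusted p under 0.05 and are named, and points are spread within a row for legibility. The 6 called class II genes lie between -1.81 and -5.70, whereas no class I gene was called; H2-DMb2 stands in both the partner and the neighbour row.

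The same lists changed along the untransplanted stages. From Ly6D+ CLP to ProB, 5 of 13 class I genes fell, namely Tap1 (-2.92), Tap2 (-2.81), Nlrc5 (-2.62), H2-K1 (-1.56) and Tapbp (-1.43), beside the fall of H2-DMa and H2-Ob. At that step Ctse rose (3.50) and Ctsl (-2.57) and Ctsd (-1.52) fell among 8 endosomal genes. Ctsl read an identical 4.50 on both ProB arrays, so the size of its steps to and from ProB is uncertain. Of the 12 regulators of Ciita, Irf4, Bcl6 and Spib rose and Spi1, Irf8, Irf1 and Irf2 fell. Of all genes, 5.36% fell and 1.93% rose at this step.

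From ProB to PreB, Ctsl (4.47), Ifi30 (2.44) and Ctss (1.71) rose among the endosomal genes, and none fell. Cd83 read 9.24 and 9.10 in PreB, against 2.54 on both ProB arrays, which were at the floor (difference 6.64, SE 0.55, limma adjusted p = 0.000189, a lower bound). Of the regulators 7 of 12 rose and none fell, among them Spib (3.34), Bcl6 (2.98), Irf2 (2.36) and Irf1 (2.03), while Ciita itself stayed at the floor in PreB. Of all genes, 6.35% rose and 5.19% fell at this step. The granulocyte transcripts of the PreB arrays given above stand beside these values as well.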

How the data were processed

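RNA of 14 sorted samples had been hybridised to Affymetrix mouse 3′ arrays. The authors deposited 1 table of log2 values for 45101 probe sets. RMA, GCRMA and limma are named, without versions, in the submitters' processing notes; which of them made the table is not given in the sources used here. Symbols came from the platform annotation, updated through RefSeq (GRCm38.p6): 34945 probe sets had 1 symbol, 932 several, 9160 had none here, 64 were control sets, and 34741 with 1 symbol matched RefSeq. Each gene was represented by its probe set of highest mean, without further normalization. limma 3.58.1 in R 4.3.3 fitted 1 mean per group over all 14 arrays, and a gene was called at a two-sided p under 0.05 after Benjamini-Hochberg adjustment over 18193 genes. p-values measure the spread between these arrays, and the number of arrays limits precision. That spread is pooled over all groups, so groups at the floor narrow the SE of a gene.

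The members, gene lists, markers and tests were chosen with earlier results of these data known. Named genes were the 8 members, the called genes of each list, and the genes most correlated with the members; unlisted examples were chosen after their values were seen. List counts describe and are not tests.

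Replicate numbers come from the titles (for PreB in the block, from the descriptions). Deviations from the group means of same-numbered Pax5KO and WT engrafted arrays correlated at 0.13, 0.30 and 0.54, each over 0.1, so these numbers were taken to pair the arrays, although Pax5KO array 1 correlated best with WT array 2 (0.38). In the other comparisons same-numbered arrays correlated between -0.12 and 0.16 and were not taken as paired. Alternatives covered probe set choice, dim genes (mean under 4, or floor on every array), normalization, arrays in the fit, array weights, an Xist term, the replicate block and leaving out each array.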

Additional observations from a re-analysis of the deposited data

How the results depend on the processing

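With only the arrays of both groups in the fit, limma called 1 of the 8 genes between Pax5KO and WT engrafted cells, 0 between ProB and Ly6D+ CLP, 0 between PreB and ProB, 0 between Pax5KO engrafted and ProB cells and 1 between WT engrafted and PreB cells, where 7, 3, 5, 1 and 6 had an unadjusted p under 0.05. With the replicate block on those arrays it called 0 in each of these comparisons, where 5, 2, 3, 2 and 3 had an unadjusted p under 0.05; fewer arrays and degrees of freedom are part of these settings by construction. Between PreB and ProB, 4 genes rose without dim genes and 4 without genes at the floor on every array, and 1 with array weights. Between Pax5KO engrafted and ProB cells 2 were called with the mean of all probe sets, without dim genes, without floor genes or with equal array medians, H2-Ab1 being the added one. Leaving out each array in turn gave 5 to 7 called genes for Pax5KO against WT engrafted cells, 1 to 2 for PreB against ProB and 1 to 5 for Pax5KO engrafted against ProB cells.

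Differences that turned sign were all near 0 and never called. In Pax5KO against WT engrafted cells, H2-DMa ran from -0.36 to 0.030 when each array was left out, positive without Pax5KO array 2. In Ly6D+ against Ly6D- CLP, H2-Ab1 was at -0.40 with the mean of probe sets, -0.016 with quantile normalization and -0.062 with equal medians, and ran from -0.23 to 0.25 when each array was left out; H2-DMa ran from -0.10 to 0.32 and H2-Ob from -0.055 to 0.31. In Pax5KO engrafted against ProB cells, H2-Ob ran from -0.41 to 0.031. Over all genes, called counts for Pax5KO against WT engrafted cells ran from 92 with the block to 3065 with array weights, against 1080, so that H2-Oa passed with weights (-1.57, limma adjusted p = 0.00193). Other all-gene counts ran from 0 with the block to 1144 (Ly6D+ against Ly6D- CLP, as against 264), 2129 (ProB against Ly6D+ CLP, as against 1327), 3076 (PreB against ProB, as against 2100), 1883 (Pax5KO engrafted against ProB, as against 953) and 1970 (WT engrafted against PreB, as against 1343).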
